A study of Mus musculus with 4 samples.

Results

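Very long genes were taken as the protein-coding genes of chromosomes 1 to 19 whose annotated end lay more than 500 kb beyond their start in GENCODE M1, on the mm9 build. Of 21418 protein-coding genes, 188 met this rule. TOP2B ChIPseq peaks were assigned to a gene when their centre lay inside it or within 5 kb upstream of its start. Chromatin came from thymocytes freshly isolated from wild-type C57BL/6 mice of 4 to 6 weeks of age. The series holds 4 libraries, of which those made with the TOP2B antibodies SantaCruz sc13059 (below, Santa Cruz) and Novus Biologicals (below, Novus) have peak lists. The TOP2A library (Abcam ab52934) and the IgG control (Sigma I8140) were not analysed here. Thymocytes are a mixture of T-cell precursor stages, and positions of peaks carry no expression level with which the cell type could be checked. The Santa Cruz list held 17753 distinct positions and the Novus list 3564, of which 678 and 77 fell in very long genes. Each antibody was used in 1 library, so no replicate error exists. Intervals given below are 95% intervals, exact except for ratios within GC classes, where they are approximate. They cover counting error only, and because peaks cluster they are narrower than the true uncertainty.

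Topoisomerase IIβ (TOP2B) relieves torsional stress by cutting a DNA duplex, passing another duplex through the gap and sealing it again. It is found at promoters, at enhancers and at the anchors of chromatin loops, where the architectural protein CTCF and cohesin also sit. Very long genes carry huge introns and take many hours to transcribe, and topoisomerase activity is known to matter for their expression, most clearly in neurons. Many of them encode synaptic and cell adhesion proteins, and several overlap common fragile sites, regions that break when replication is slowed.

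Of the 77 Novus peaks in very long genes, 20 overlapped a Santa Cruz peak by 1 bp or more, and these common peaks lay in 15 genes. The sequences below are those of the common peaks whose called interval of 195 bp held a match to the CTCF core consensus, with up to 1 mismatch, among the first such peaks in genome order, and are shown because they are the positions for which both antibodies and a sequence feature are at hand. They lie at chr6:33879770-33879964 in an intron of Exoc4, chr8:117495327-117495521 in an intron of Wwox, chr8:125430606-125430800 in an exon inside the Gm20388 model, chr9:69216026-69216220 in an intron of Rora and chr13:110566405-110566599 in an intron of Pde4d. All are printed as the plus strand of mm9 with the matched bases in capitals. The match was on the minus strand in Exoc4, Wwox and Rora and on the plus strand in Gm20388 and Pde4d. It was free of mismatches in Exoc4, Wwox and Pde4d and had 1 mismatch in Gm20388 and Rora.
Exoc4 intron: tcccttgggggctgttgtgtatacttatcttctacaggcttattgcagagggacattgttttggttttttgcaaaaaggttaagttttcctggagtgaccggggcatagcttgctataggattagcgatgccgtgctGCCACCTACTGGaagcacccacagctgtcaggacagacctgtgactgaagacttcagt
Wwox intron: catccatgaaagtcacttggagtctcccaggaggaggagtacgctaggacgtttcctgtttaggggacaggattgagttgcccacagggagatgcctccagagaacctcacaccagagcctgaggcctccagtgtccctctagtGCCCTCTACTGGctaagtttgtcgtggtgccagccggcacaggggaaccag
Gm20388 exon: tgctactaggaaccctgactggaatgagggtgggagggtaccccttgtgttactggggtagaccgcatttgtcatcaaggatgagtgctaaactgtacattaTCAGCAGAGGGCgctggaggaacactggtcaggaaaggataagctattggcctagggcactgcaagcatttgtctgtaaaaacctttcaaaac
Rora intron: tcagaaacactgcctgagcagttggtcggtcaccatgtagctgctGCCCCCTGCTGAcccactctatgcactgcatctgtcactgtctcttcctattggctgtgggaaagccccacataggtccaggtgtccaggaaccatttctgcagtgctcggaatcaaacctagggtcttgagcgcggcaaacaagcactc
Pde4d intron: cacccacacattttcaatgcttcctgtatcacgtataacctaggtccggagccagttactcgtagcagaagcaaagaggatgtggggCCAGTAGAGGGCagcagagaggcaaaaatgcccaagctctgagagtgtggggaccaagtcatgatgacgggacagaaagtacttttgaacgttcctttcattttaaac
Further common peaks, in Fgfr2 and Fhit, had a match outside the called interval and are not printed.

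TOP2B peaks were sparser in very long genes than in shorter ones with both antibodies. Very long genes and the 5 kb upstream of them covered 163.3 Mb and held 4.15 Santa Cruz peaks per Mb (3.84 to 4.48), whereas shorter genes held 11.6 per Mb (11.3 to 11.8), a ratio of 0.359 (0.331 to 0.388). The Novus density was 0.471 peaks per Mb (0.372 to 0.589) against 2.62 (2.51 to 2.73), a ratio of 0.180 (0.142 to 0.226). Density fell at every step of length. With Santa Cruz it was 15.3 peaks per Mb in genes up to 50 kb, 12.1 at 50 to 100 kb, 10.4 at 100 to 200 kb and 7.36 at 200 to 500 kb. With Novus the same classes held 3.62, 2.99, 2.33 and 1.29 peaks per Mb. Against the 721 genes of 200 to 500 kb alone, the ratio was nearer to 1, at 0.564 (0.515 to 0.617) with Santa Cruz and 0.365 (0.280 to 0.470) with Novus.

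A short gene is mostly the surroundings of its promoter, so densities were also compared after removal of everything within 5 kb of a coding transcript start. Very long genes then held 3.87 Santa Cruz peaks per Mb and shorter genes 8.64, a ratio of 0.448 (0.411 to 0.487). With Novus the densities were 0.389 and 1.51 peaks per Mb, a ratio of 0.257 (0.195 to 0.334). Away from starts the Novus density did not fall at every step, since genes up to 50 kb held 1.57 peaks per Mb and genes of 50 to 100 kb held 1.92.

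Base composition differed with length too. The territory of very long genes had a GC content of 40.5%, that of shorter genes 43.8%. Within classes of similar GC content the ratio of very long to shorter genes was 0.558 (0.516 to 0.605) with Santa Cruz and 0.277 (0.221 to 0.347) with Novus. Among the 188 genes, Santa Cruz density and GC content had a Spearman rank correlation of 0.55, and density and length one of -0.19, both given as descriptions across genes. With Novus these correlations were 0.259 and -0.0346. Santa Cruz peaks common to both lists gave a ratio of 0.176 (0.107 to 0.275), near the 0.180 of all Novus peaks. Such a peak must overlap a Novus peak, so this ratio is not independent of the Novus one.

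**Figure D1:**
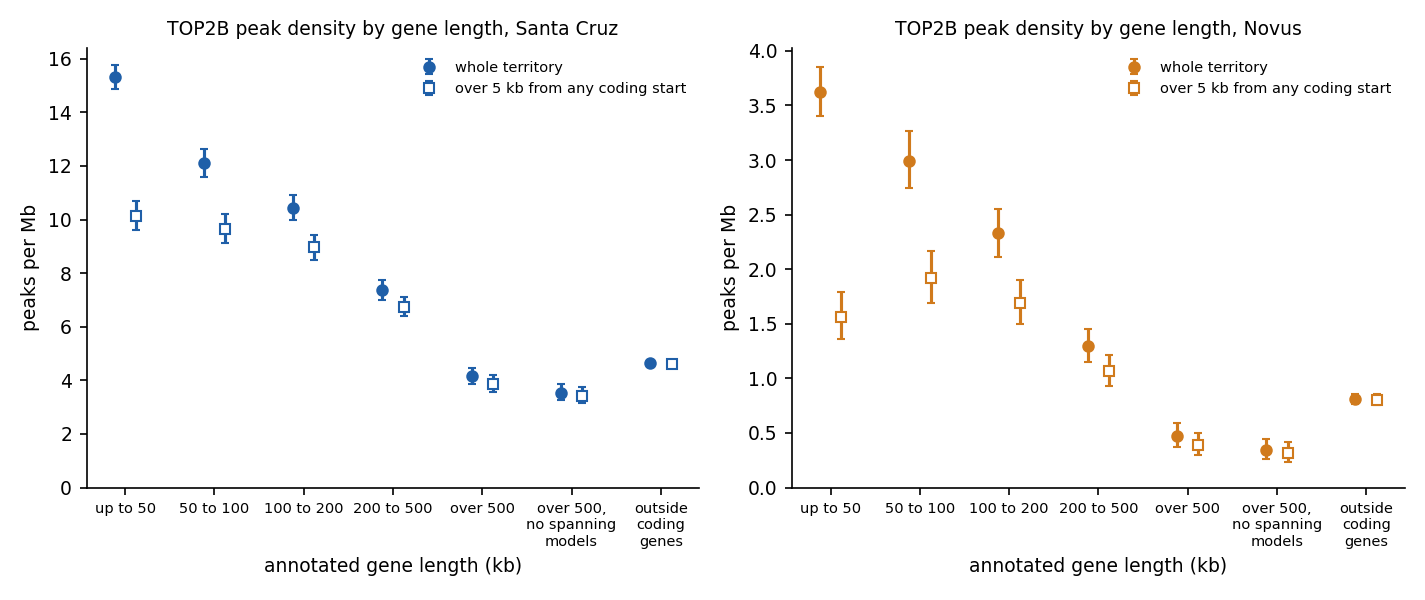
Peaks per Mb of gene territory (vertical axis) by annotated gene length in kb (horizontal axis), with Santa Cruz on the left and Novus on the right; filled circles are the whole territory, open squares the territory over 5 kb from any coding start, and bars are exact 95% Poisson intervals. Santa Cruz density goes from 15.3 peaks per Mb in the shortest class to 4.15 in genes over 500 kb, where it lies near the 4.64 of territory outside coding genes.

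Territory outside protein-coding genes offers another reference, one added once the densities were known. Counted over sequenced bases, very long genes held 4.18 Santa Cruz peaks per Mb and this territory 4.89, a ratio of 0.854 (0.788 to 0.925). Within classes of similar GC content that ratio was 0.938, with an interval that included 1 (0.867 to 1.02). Away from starts the ratio within GC classes was 0.902 (0.830 to 0.981), below 1. Novus density remained lower in very long genes, with a ratio of 0.557 (0.436 to 0.701), and of 0.639 (0.507 to 0.806) within GC classes.

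Among the 188 annotated genes, 3 are models that span other genes. Gm20388, on chromosome 8, is a single transcript of 4.43 Mb with 72 other protein-coding genes wholly inside it. Fgfr2, a receptor for fibroblast growth factors, reaches 3.01 Mb through 1 of its 29 transcripts, and its next longest transcript measures 104 kb. Arfip1, which binds the small GTPase ARF1, reaches 1.39 Mb through 1 of 5 transcripts, the next measuring 86.4 kb. They hold 31 and 5 other coding genes. These models were noticed after the data had been seen, and part of their peaks lay in or near the genes inside. This held for 56.7% of the 90 Santa Cruz peaks of Gm20388, where such genes take 45.6% of the length, for 54.2% of the 24 in Fgfr2 (49.2% of the length) and for 41.2% of the 17 in Arfip1 (28.6% of the length). Without the 3 models, the density of the other 185 genes was 3.54 peaks per Mb with Santa Cruz and 0.343 with Novus, and the ratios to shorter genes were 0.305 (0.280 to 0.333) and 0.131 (0.0977 to 0.172). The ratio to territory outside coding genes within GC classes was then 0.892 (0.817 to 0.974) with Santa Cruz, below 1.

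Most very long genes held a Santa Cruz peak and few held a Novus peak. At least 1 Santa Cruz peak fell in 163 genes (86.7%), where 32.4% of all coding genes held one, and at least 1 Novus peak in 35 genes (18.6%), where 10.4% of all coding genes did. A longer territory leaves more room for a peak, and the median territory was 733 kb in very long genes and 14.9 kb in genes up to 50 kb. The Santa Cruz share rose at every step of length. The Novus share rose up to genes of 200 to 500 kb and was lower in very long genes. In genes of 200 to 500 kb, with a shorter median territory of 287 kb, 27.3% held a Novus peak. No peak of either list fell in 24 genes, and Unc5d, a netrin receptor, held a Novus peak but no Santa Cruz peak. The median gene had 3.26 Santa Cruz peaks per Mb (quartiles 1.498 and 5.50, highest 20.3). Just inside the length limit, Edil3 at 501.8 kb held 0 Santa Cruz peaks and Dock1 and Car10 held 3 each. Just outside it, Dnm3 at 495.6 kb and Ank3 held 3 each and Abca13 held 1.

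**Figure D2:**
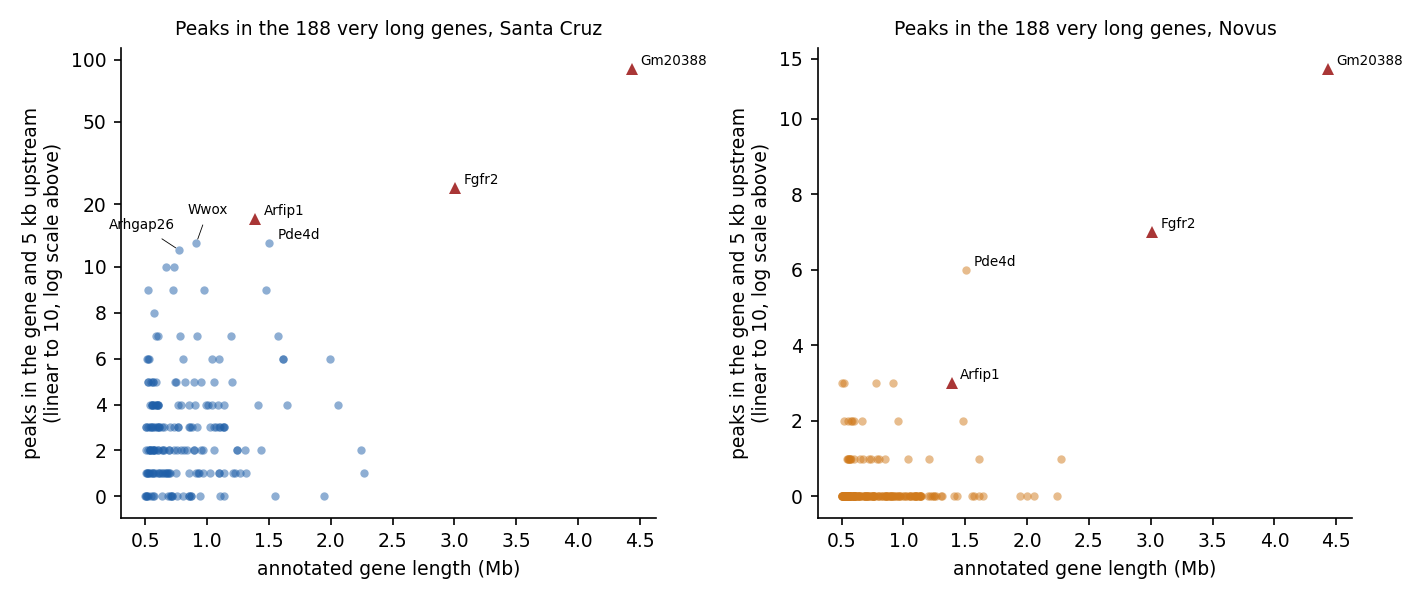
Number of peaks (vertical axis, linear up to 10 and logarithmic above) against annotated gene length in Mb (horizontal axis) for each of the 188 very long genes, with Santa Cruz on the left and Novus on the right; red triangles are the 3 models that span other genes. Gm20388 holds 90 Santa Cruz and 14 Novus peaks, while long genes such as Dlg2 and Ptprd lie at 0 or 1.

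The genes with the most peaks, other than those 3 models, were of mixed function. Pde4d, a phosphodiesterase that degrades cyclic AMP and so tunes T-cell activation, held 13 Santa Cruz and 6 Novus peaks over 1.504 Mb, with 2 Novus peaks common to both lists. No Santa Cruz peak of Pde4d lay within 438 kb of its start. Its common peaks lay 991 and 1326 kb downstream of the start, the second being the one printed above. Wwox, a fragile-site gene for an oxidoreductase with tumour suppressor activity, held 13 Santa Cruz peaks in 0.913 Mb, or 14.2 per Mb (7.54 to 24.2), and 3 Novus peaks, 2 of them common. Of its Santa Cruz peaks, 10 lay between 331.7 and 450.5 kb from the start counting both ends of that stretch.

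Rora, which encodes a nuclear receptor that acts in lymphocyte differentiation, held 10 Santa Cruz peaks, or 13.5 per Mb (6.48 to 24.9). Its first Santa Cruz peak lay 3.82 kb from the annotated start, 1 lay 635.9 kb downstream, within 1 kb of the start of a shorter Rora transcript, and the common peak lay at 714.5 kb. Arhgap26, a GTPase-activating protein, held 12 Santa Cruz and 3 Novus peaks. Cdkal1, which modifies a transfer RNA, held 10 and 2. St6galnac3, a sialyltransferase, had the highest Santa Cruz density outside the spanning models, 9 peaks in 0.520 Mb or 17.2 per Mb (7.84 to 32.6). It held 0 Novus peaks, which allows up to 5.72 per Mb by a floor of 3 counts. Rabgap1l, Exoc4 and Ryr3 had 13.8, 12.3 and 11.8 Santa Cruz peaks per Mb, and with Gm20388 (20.3) and Arfip1 (12.2) counted they complete the 10 highest densities.

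The highest Novus densities rested on few peaks. Rad51l1, which acts in homologous recombination, held 3 Novus peaks or 5.87 per Mb (1.21 to 17.2) and 2 Santa Cruz peaks. Ptprk, a receptor tyrosine phosphatase that affects CD4 T-cell development in the thymus, held 3 Novus peaks or 5.69 per Mb (1.17 to 16.6), of which 2 were common, and 6 Santa Cruz peaks. Pde4d, Arhgap26 and Elmo1 followed at 3.98, 3.85 and 3.84 Novus peaks per Mb. The intervals of these 5 genes overlapped throughout, so their order is not resolved. Across the 188 genes the Spearman rank correlation between Santa Cruz and Novus densities was 0.46, a description in which both lists share GC content and gene length.

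Of the longest genes after the spanning models, Ptprd, Cntnap2 and Lrp1b held few peaks for their length. Their GC content was 37.0%, 37.8% and 36.4%, where the territory of all very long genes had 40.5%. Ptprd, a receptor phosphatase at synapses, spans 2.27 Mb and held 1 peak in each list, at 440.7 kb with Santa Cruz and 381.0 kb with Novus. Cntnap2, a neurexin-like adhesion protein, held 2 Santa Cruz peaks in 2.24 Mb, the first of them 1586 kb from its start. Lrp1b, a lipoprotein receptor, held 4 in 2.06 Mb, all between 976 and 1173 kb from the start. Macrod2, an ADP-ribosylhydrolase, held 6 in 1.998 Mb, or 3.00 per Mb, near the median of all very long genes. The longest of the 24 genes without a peak in either list was Dlg2, a synaptic scaffold of 1.95 Mb, where 0 peaks allow up to 1.54 per Mb by the floor of 3 counts. Pcdh15, Galntl6, Nrg3, Thsd7b, Pcdh9, Dpyd, Ctnnd2, March1 and Lphn3, between 1.55 and 0.805 Mb long, also held none, with floors of 1.93 to 3.70 peaks per Mb. Several of these encode synaptic or adhesion proteins (Pcdh15, Pcdh9, Ctnnd2, Lphn3), but Dpyd degrades pyrimidines and March1 is a ubiquitin ligase of antigen-presenting cells. Their GC content ran from 35.6% in Pcdh9 to 41.0% in Ctnnd2.

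**Figure D3:**
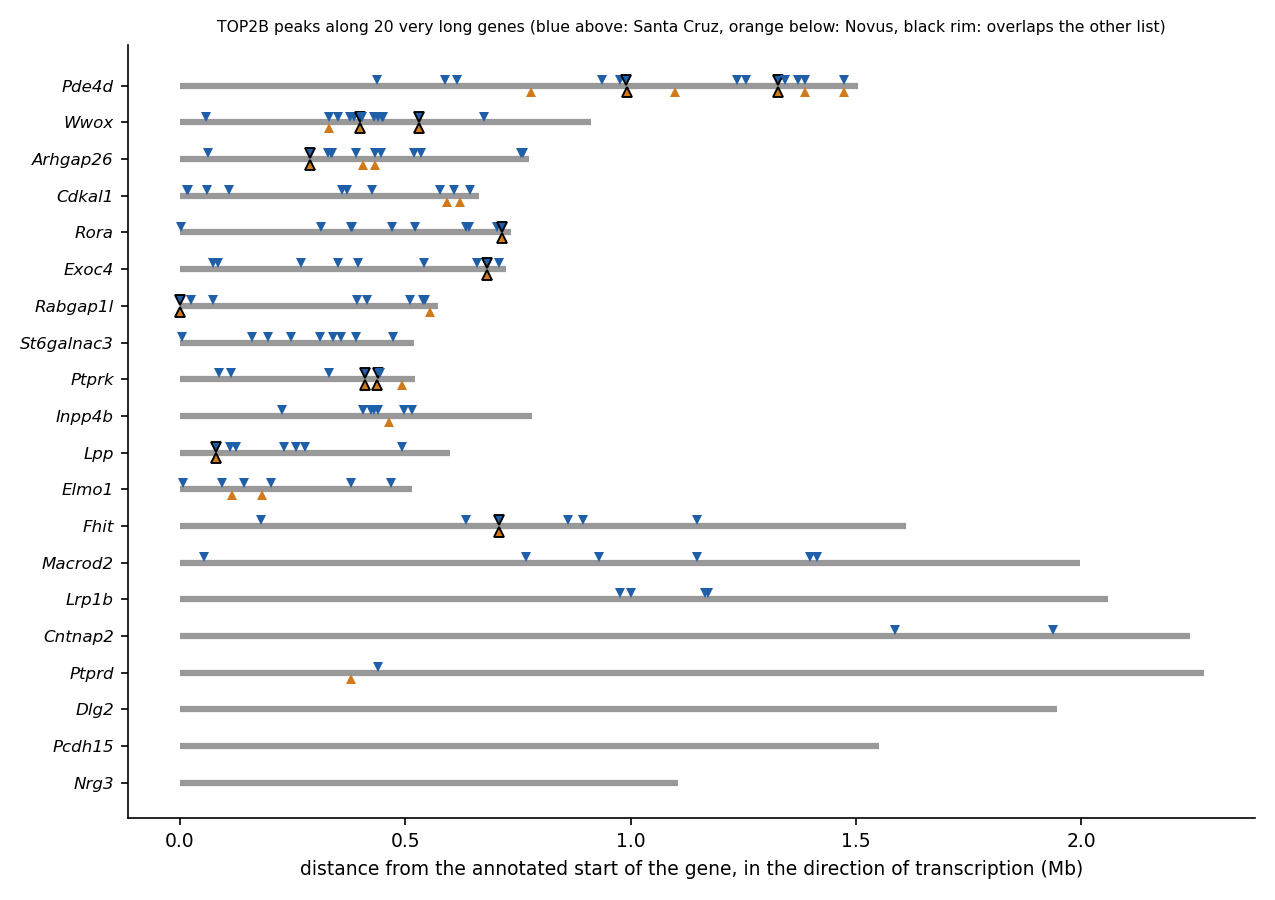
Peaks along 20 very long genes, drawn as grey bars from the annotated start at 0 in the direction of transcription (horizontal axis, Mb); blue triangles above the bar are Santa Cruz peaks, orange triangles below it Novus peaks, and black rims mark peaks that overlap the other list. Pde4d has no Santa Cruz peak in its first 438 kb, Wwox has a cluster at 332 to 451 kb, and Dlg2, Pcdh15 and Nrg3 have none.

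Gene groups differed in density. The lists are of known function and were drawn up with earlier results of these data known, so their counts are descriptions and no test was run on them. The 50 very long genes for synaptic and neural adhesion proteins held 2.25 Santa Cruz peaks per Mb (1.86 to 2.70) and a median of 1.97 per gene, below the median of 3.26 over all very long genes. Of these 50 genes, 9 held no Santa Cruz peak and 45 no Novus peak, where 25 and 153 of all 188 very long genes held none. The 50 genes held 7 Novus peaks in 51.0 Mb, or 0.137 per Mb (0.0551 to 0.283), none of them common. Within the list Sdk1, an adhesion protein of synapse targeting, reached 9.19 Santa Cruz peaks per Mb, Slit3, an axon guidance ligand, 8.44, and Kirrel3 7.20. Nrxn3, a presynaptic adhesion receptor, had 3.71, and Nlgn1, Rims1 and Cntnap5b had 0.

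The 18 ion channel and neurotransmitter receptor genes held 3.21 Santa Cruz peaks per Mb (2.33 to 4.31) and 1 Novus peak, in Gabrg3, a GABA receptor subunit. Ryr3, an intracellular calcium channel, was highest at 11.8, followed by the potassium channel Kcnq5 at 7.04 and the calcium channel Cacna1c at 6.57. Dpp10, which modulates potassium channels, held none.

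The 10 very long genes among lymphoid regulators and signalling proteins held 8.32 Santa Cruz peaks per Mb (6.36 to 10.7), with a median gene at 9.21. None was at 0, where 86.7% of all very long genes held a Santa Cruz peak. The Novus density of the 10 genes was 2.05 per Mb (1.15 to 3.37), from 15 peaks of which 6 were common. Of the 15, Pde4d held 6 and Ptprk 3, and 3 of the 10 genes held no Novus peak. Mean GC content was 40.4% in the lymphoid and 39.9% in the synaptic genes, and its part in these densities was not tested. Rora, Lpp, Elmo1 and Ptprk stood highest at 13.5, 11.6, 11.5 and 11.4 Santa Cruz peaks per Mb. Lpp is an adaptor at cell adhesions, and Elmo1 works with DOCK proteins to activate RAC. Pde4b, a phosphodiesterase like Pde4d, had 9.53 and Inpp4b, a phosphoinositide phosphatase, 8.89. Zbtb20, a transcriptional repressor, Arhgap15, which inactivates RAC, and Plcb1, a phospholipase, had 3.89, 3.07 and 2.88, near the median of all very long genes.

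The density of genes at common fragile sites had intervals that included the value of all very long genes with both antibodies, with 3.66 Santa Cruz peaks per Mb (3.01 to 4.40) over 25 genes and 0.494 Novus peaks per Mb (0.277 to 0.815). They ranged from Wwox at 14.2 to Dlg2, Thsd7b, Dpyd and Ctnnd2 at 0. Fhit, a dinucleoside hydrolase and tumour suppressor, had 3.71, with a common peak 708.4 kb from its annotated start and within 1 kb of the start of a shorter transcript. Macrod2, Park2 and Immp2l had 3.00, 4.00 and 1.53. Rora and Pde4d belong to this list as well as to the lymphoid one. The 17 genes listed as broadly expressed had 5.56 per Mb (4.30 to 7.07), led by Cdkal1, Rabgap1l and Exoc4. This list also holds Rbfox1, Auts2 and Nbea, better known from neurons, at 3.29, 2.70 and 1.77. The 80 very long genes in no list, other than the 3 spanning models, had 3.63 per Mb (3.15 to 4.15) with Santa Cruz and 0.225 with Novus.

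**Figure D4:**
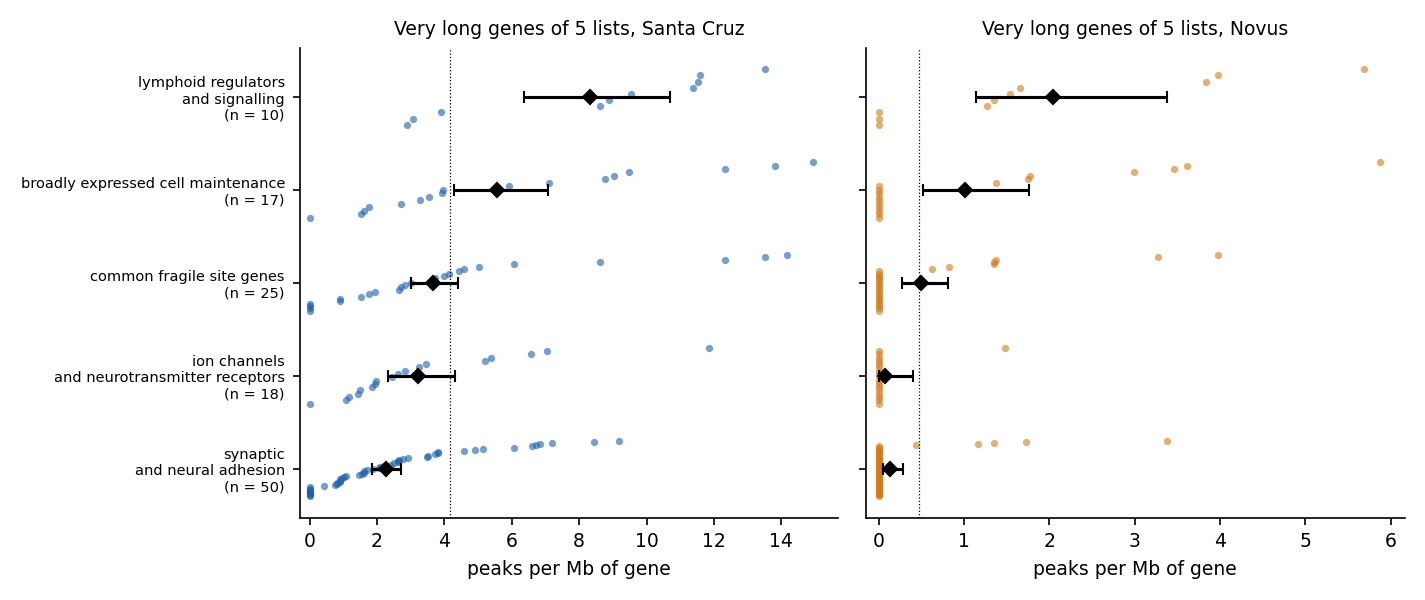
Peaks per Mb of gene (horizontal axis) for the very long members of 5 gene lists (vertical axis, spread for visibility), with Santa Cruz on the left and Novus on the right; each dot is a gene, black diamonds are the density over all members with exact 95% Poisson bars, and the dotted line is the density of all 188 genes. Santa Cruz density runs from 2.25 per Mb in synaptic genes to 8.32 in lymphoid ones.

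A peak at the start was rare in very long genes. A Santa Cruz peak lay within 5 kb of the annotated start of 9 of the 188 genes (4.79%, 2.21 to 8.89), where 18.7% of all coding genes had one and 17.3% (14.6 to 20.3) of the genes of 200 to 500 kb did. With Novus, 1 gene had such a peak (0.532%, 0.0135 to 2.93), where 6.25% of all coding genes did. The 9 genes were Rabgap1l, Smyd3, Lrba, St6galnac3, Rora, Slc9a9, Ctnna3, 5033411D12Rik and Atrnl1. Rabgap1l was the gene with a Novus peak at the start, 0.114 kb downstream, overlapping the Santa Cruz peak at 0.121 kb. The outermost start may be that of 1 among several transcripts, so starts of all coding transcripts of the gene were counted too. Within 1 kb of any of them, 15 genes had a Santa Cruz peak (7.98%, 4.53 to 12.8), where 14.98% (12.5 to 17.8) of the genes of 200 to 500 kb did. Those at internal starts included Pde4b at 481.9 kb, Inpp4b at 431.0 kb, Arhgap26 at 391.5 kb and Pde4d at 1236 kb.

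The bodies of the 9 genes with a Santa Cruz start peak held more peaks than those without. Beyond 5 kb from the start they held 7.03 Santa Cruz peaks per Mb (5.13 to 9.41), and each had at least 1, whereas the other 179 genes held 4.02 (3.71 to 4.35), a ratio of 1.75 (1.26 to 2.37). Without the 3 spanning models, none of which had a start peak, the ratio was 2.09 (1.504 to 2.84). With a start peak taken as one within 1 kb, the ratio was 1.35 and its interval included 1. Novus gave a single gene with a start peak, whose body held 1 peak, and so no usable ratio for genes grouped by Novus start peaks. With genes grouped by their Santa Cruz start peak, the ratio of Novus body densities was 1.35 (0.357 to 3.598). Without the 3 spanning models it was 1.904, and both intervals included 1. The higher body density was thus not resolved with Novus. The reverse grouping gave a Santa Cruz ratio of 2.996, which rests on 1 gene with a Novus start peak.

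Along the gene, Santa Cruz peaks were spread nearly evenly, whereas the few Novus peaks gave wide intervals. Of 668 Santa Cruz peaks inside the genes and over 5 kb from the start, 304 lay in the first 50% of the remaining length. This was 45.5% (41.7 to 49.4), slightly fewer than an even spread would place there. Leaving out Gm20388 gave 47.1% and leaving out the 3 spanning models 47.5% (43.2 to 51.8), both with intervals that included 50%. With Novus, 29 of 76 peaks lay in the first 50%, or 38.2% (27.2 to 50.02). The first 10% of the length of very long genes held 10.8% of their Santa Cruz peaks (8.60 to 13.4) and the last 10% held 12.04% (9.67 to 14.7), with 7.58% to 11.6% in the stretches between. In genes of 200 to 500 kb the first 10% of the length held 13.6% (11.95 to 15.4) with Santa Cruz and 19.3% (14.8 to 24.6) with Novus, and the Novus share in very long genes was 6.49% (2.14 to 14.5). The last 10% of very long genes held 15.6% of the Novus peaks (8.32 to 25.6), and 20.8% (10.8 to 34.1) without the 3 spanning models.

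By distance, Santa Cruz density was 5.32 peaks per Mb both in the 5 kb upstream and in the first 5 kb of the gene, from 5 peaks each and with intervals from 1.73 to 12.4. It was 4.49 per Mb at 5 to 50 kb, 4.04 at 50 to 100 kb, 3.46 at 100 to 200 kb, 3.30 at 200 to 300 kb, 3.67 at 300 to 400 kb and 4.95 (3.99 to 6.06) at 400 to 500 kb. Neighbouring classes had intervals that overlapped.

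**Figure D5:**
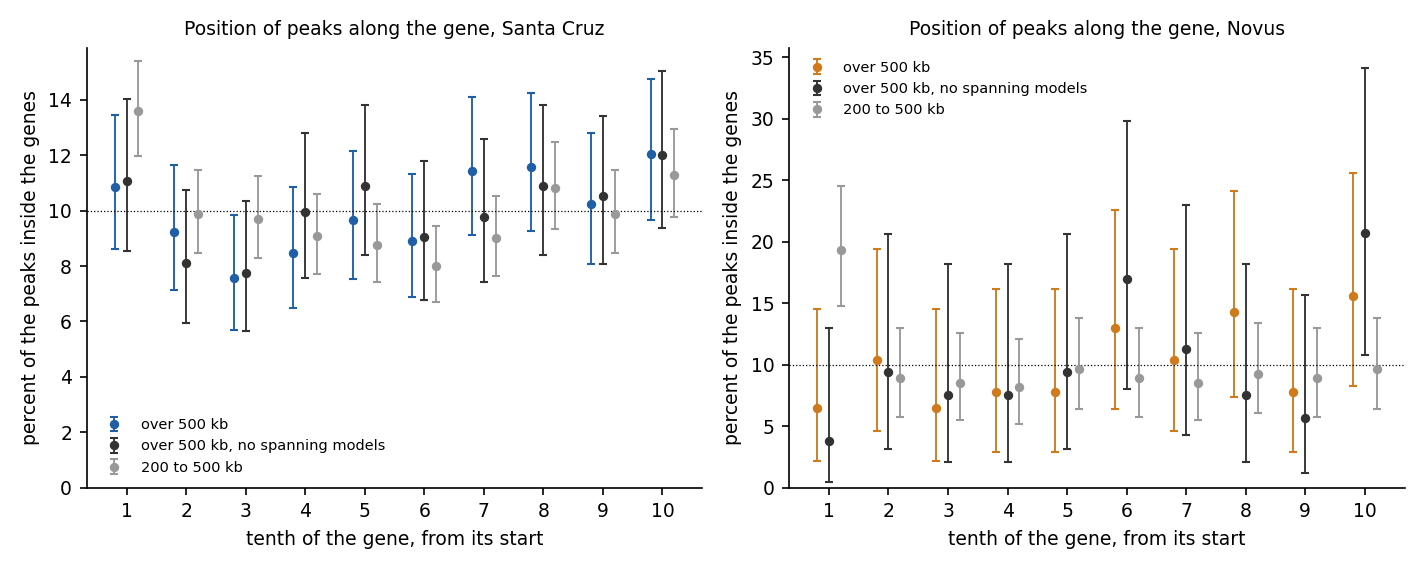
Percent of the peaks inside genes (vertical axis) in each stretch of 10% of the gene, counted from its start (horizontal axis), with Santa Cruz on the left and Novus on the right; colours are genes over 500 kb, the same without the 3 spanning models and genes of 200 to 500 kb, bars are exact 95% intervals and the dotted line is 10%. In genes of 200 to 500 kb the first 10% of the length stands at 13.6% with Santa Cruz and 19.3% with Novus, and in very long genes at 10.8% and 6.49%.

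Nearly all peaks in very long genes were intronic. Introns were the class left after starts, exons and the upstream part. The intron share of the territory was not measured, so no preference for introns can be read from the shares below. Of the 678 Santa Cruz peaks, 627 (92.5%, 90.2 to 94.3) lay in introns, 15 within 1 kb of a start of the gene itself, 23 within 1 kb of the start of another coding gene, 10 in exons and 3 in the upstream part. Of the 23 at starts of other genes, 20 lay in the 3 spanning models. Of the 77 Novus peaks, 66 were intronic, 3 lay at a start of the gene, 5 at the start of another and 3 in exons. Outside the spanning models, the exonic peaks were those of Pkhd1, Pard3b, Grm8, Syne1 and 1700112E06Rik with Santa Cruz and of Celf2 and Gabrg3 with Novus, chosen for naming after their values were seen. The median GC content of a Santa Cruz peak was 46.0% (quartiles 40.1% and 50.8%) and that of a Novus peak 49.7% (46.7% and 55.9%), where the territory of all 188 genes had 40.5%.

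The CTCF core, the short sequence that the central zinc fingers of CTCF recognise, was searched for, in either orientation, up to 250 bp to each side of the peak centre and with up to 1 mismatch. Away from coding starts, 53 of 607 Santa Cruz peaks in very long genes held a match (8.73%, 6.61 to 11.3), against 16.6% (15.7 to 17.6) of those in shorter genes, an odds ratio of 0.480 (0.352 to 0.643). Matches were also rarer in the sequence at large, in 2.81% of all 500 bp windows of very long genes and 4.77% of those of shorter genes. Novus peaks held a match in 20 of 61 cases in very long genes (32.8%, 21.3 to 46.0) and in 27.9% (25.1 to 30.9) in shorter genes, an odds ratio of 1.26 (0.686 to 2.25), so that no difference was detectable at this number of peaks. The direction turned without the 3 spanning models with Novus, at an odds ratio of 0.978, and on common peaks alone with Santa Cruz, at 1.05 (0.313 to 3.41). Of the 62 Santa Cruz peaks with a match, 31 had it on the strand of the gene (50%, 37.0 to 63.0), as did 12 of 22 Novus peaks.

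The share of Novus peaks common to both antibodies differed between very long and shorter genes by less than the counting error. It was 26.0% (16.6 to 37.2) in very long genes and 26.4% (24.6 to 28.2) in shorter ones, an odds ratio of 0.980 (0.553 to 1.67). Counted on the Santa Cruz list, the share was lower in very long genes, 2.95% (1.81 to 4.52) against 6.00% (5.54 to 6.48), an odds ratio of 0.476 (0.287 to 0.749). Very long genes held 77 Novus and 678 Santa Cruz peaks, and shorter genes 2265 and 10021. Fewer Novus peaks were thus there to overlap for each Santa Cruz peak, and this share is not independent of the density ratios. The other genes that held a common peak were Arhgap26, Atp8a2, Exoc4, Fam190a, Fhit, Lpp, Ptprk, Rabgap1l, Rad51l1, Rora and the 3 spanning models, besides Pde4d and Wwox. Of the 35 genes with a Novus peak, 42.9% thus had one that Santa Cruz also found. A gene with several Novus peaks has more chances to hold a common one. The same share per gene was not computed for shorter genes, so 42.9% cannot be read as a trait of very long genes.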

How the data were processed

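TOP2B binding was measured by ChIPseq in thymocytes, with 1 library per antibody. The authors prepared libraries by ChIPmentation, mapped the reads with Bowtie 1.2.0 (mm9) and used HOMER in factor style to call peaks for each library, keeping those above a set enrichment over the IgG library. The deposited lists give positions, with a width of 187 bp (Santa Cruz) or 195 bp (Novus). The deposited score is 0 for every peak, so that no height, depth or stricter score threshold could be used. Of 17754 Santa Cruz rows, 1 repeated a position, inside Ptprk, and was counted once. Fixed calling criteria mean that deeper or cleaner libraries yield more peaks, and the lists cannot be compared in level with each other.

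Peaks were assigned to GENCODE M1 genes by their centre. Densities were computed over merged territory (gene plus 5 kb upstream, very long genes taking precedence), with exact Poisson intervals. Ratios have exact conditional intervals, shares Clopper-Pearson intervals, and odds ratios exact conditional intervals, at 95% throughout. GC classes were 2 percentage points wide over bins of 10 kb (Mantel-Haenszel), and ratios within them have approximate rather than exact intervals. The lowest and the highest GC class were open-ended, so GC content was matched less closely there. A count of 0 was taken to allow up to 3 counts. This floor is lower than the upper end of the exact interval, as in Dlg2 with 1.54 against 1.89 per Mb. No p-value was computed. Alternatives included other length limits, distances, reference genes, common peaks and a negative binomial fit, and after the data had been seen the 3 spanning models were left out. The interval and motif code was tested on simulated data. Python 3.11.15, numpy 2.4.6, scipy 1.17.1, statsmodels 0.14.6 and matplotlib 3.10.9 were used. The genes named were the 10 with the highest Santa Cruz density, the 5 with the highest Novus density, the 5 with most Santa Cruz peaks, the 5 longest, the 10 longest without a peak, those with a common peak and members of the lists. Members and lists were chosen with earlier results of these data known. Some items are not reported here.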

Additional observations from a re-analysis of the deposited data

How the results depend on the processing

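The lower density in very long than in shorter genes kept its direction, with an interval below 1, under all alternatives run against shorter genes, from 0.176 to 0.564 over 17 alternatives with Santa Cruz and from 0.131 to 0.365 over 17 with Novus. Against territory outside coding genes the Santa Cruz ratio within GC classes, 0.938 (0.867 to 1.02), had an interval that included 1. That interval lay below 1 away from starts, at 0.902 (0.830 to 0.981), and without the 3 spanning models, at 0.892 (0.817 to 0.974). With both changes the ratio was 0.880 (0.804 to 0.964). Away from starts the ranges against shorter genes were 0.238 to 0.642 and 0.207 to 0.384 over 15 alternatives each. The lowest Santa Cruz values, 0.176 and 0.238, came from common peaks, which must overlap a Novus peak and so depend on that list. The share of Santa Cruz peaks in the first 50% of the gene beyond the start region had an interval that included 50% in 4 of 7 alternatives. These gave 46.3% without peaks within 1 kb of a coding start, 31.6% on common peaks, 47.1% without Gm20388 and 47.5% without the 3 spanning models. With Novus the interval excluded 50% at 37.8% (50 kb from the start) and 35.5% (without Gm20388). The ratio of bodies with and without a start peak included 1 for Santa Cruz at 1.35 (1 kb) and excluded it for Novus at 3.46 (any annotated start). For Novus bodies grouped by the Santa Cruz start peak, the interval included 1, at 0.357 to 3.598. The CTCF odds ratio was 1.05 on common peaks with Santa Cruz and 0.978 without the spanning models with Novus. Genes without a Santa Cruz peak numbered 173 on common peaks, which are fewer by construction. The odds ratio of the common share was 0.476 counted on the Santa Cruz list and 1.10 without the spanning models. The cause was not tested for any other change. A stricter score threshold could not be run, since the scores are all 0. No paired analysis was possible because each antibody has 1 library. The number of Novus peaks limits what can be seen, and leaving out replicates was not possible.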
